A study of Mus musculus with 10 samples.

Results

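Myoblast fusion genes are described here as 7 genes whose products bring muscle precursor cells together or merge their membranes: *Mymk*, *Mymx*, *Cdh15*, *Jam2*, *Jam3*, *Nphs1* and *Tmem182*. They were chosen by name, and their Ensembl identifiers were looked up in the count data of every mouse. All 7 were found among the 25700 genes listed, and 6 of them had reads. The tissue was tibialis anterior (TA) muscle taken 6 days after injection of cardiotoxin (CTX), a snake venom toxin that kills muscle fibers and starts their regeneration. RNA was sequenced from 5 Pax7Cre mice, which carry Cre recombinase under the *Pax7* locus and have miR-501 intact, and from 5 Pax7Cre miR-501fl/Y mice, in which the same Cre removes the floxed miR-501 precursor. The labels title the latter miR-501KO and give their genotype as miR-501 -/- against wild type, whereas the series' design text describes the conditional cross, so they are called miR-501ΔMP here, after the study's name for it. All 10 mice were C57BL/6 males, 12 weeks old, and both genotypes carried Cre. The Cre is not inducible and acts in cells of the Pax7 lineage, that is satellite cells and the fibers they form, so by design immune, vascular and connective tissue cells in the same sample keep the miRNA.

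When muscle is injured, satellite cells divide, commit to myogenesis as myoblasts, and then fuse with each other and with damaged or newly formed fibers. Fusion begins with recognition and adhesion of the cells, continues with remodeling of the actin cytoskeleton at the contact, and ends with opening of a pore between the membranes. *Mymk* encodes myomaker and *Mymx* encodes myomixer, the muscle-specific membrane proteins that carry out the merger itself. *Cdh15* encodes M-cadherin, *Jam2* and *Jam3* encode junctional adhesion molecules that bind each other, and *Nphs1* encodes nephrin, best known from the kidney filter and described as an adhesion molecule of fusing myoblasts. *Tmem182* encodes a muscle membrane protein described as a brake on fusion that binds integrin β1.

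The deleted miRNA and the control regions of the fusion genes are shown first, because the design asks what changes when the miRNA is lost. Mature miR-501-3p, from RefSeq for GRCm38.p6, lies on the minus strand at chrX:7241270-7241291, inside the *Clcn5* gene, and its seed (bases 2 to 8, counted from the 5′ end) is in capitals.

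miR-501-3p: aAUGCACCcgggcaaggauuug

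A match to the seed would read GGTGCAT in the transcript. None of the 7 fusion genes had this 7-base word in an annotated 3′ untranslated region, against 1360 of 20968 genes (6.49%). Those 20968 are the genes listed in the counts that have such a region in a protein-coding transcript. The shorter word GTGCAT occurred 1 time among the 7 genes, in the 1871-base region of *Tmem182*. These counts say only which letters are present in these windows.

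Start-site regions (250 bases before to 50 after the annotated start) were present in the RefSeq table for 3 of the 7 genes, *Cdh15*, *Nphs1* and *Tmem182*. *Cdh15* and *Tmem182* are printed because both had reads in this muscle. Capitals mark the E-box CANNTG, the same on both strands, which is the word read by MyoD, myogenin and other basic helix-loop-helix factors. *Cdh15* (chr8:122848124-122848423, plus strand) had 4 E-boxes, which began at -236, -135, -32 and -2 from the start. That start is the RefSeq one. The *Cdh15* gene model of GENCODE M21, used here for exon lengths, begins at 122847966, so this whole window lies inside it. *Tmem182* (chr1:40805351-40805650, plus strand) had 2, at -193 and -41, and the latter was CAGCTG. Of 32851 promoters of the same length, 72.3% held an E-box, with a median of 1, and 16.3% held CAGCTG. *Nphs1* had no E-box in its window, which also lies inside its GENCODE M21 gene model.

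Cdh15: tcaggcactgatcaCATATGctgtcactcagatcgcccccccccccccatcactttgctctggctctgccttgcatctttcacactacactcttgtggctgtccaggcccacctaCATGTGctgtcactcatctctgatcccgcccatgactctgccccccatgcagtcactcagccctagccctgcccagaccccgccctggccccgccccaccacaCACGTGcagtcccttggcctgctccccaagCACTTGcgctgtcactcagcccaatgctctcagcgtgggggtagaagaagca

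Tmem182: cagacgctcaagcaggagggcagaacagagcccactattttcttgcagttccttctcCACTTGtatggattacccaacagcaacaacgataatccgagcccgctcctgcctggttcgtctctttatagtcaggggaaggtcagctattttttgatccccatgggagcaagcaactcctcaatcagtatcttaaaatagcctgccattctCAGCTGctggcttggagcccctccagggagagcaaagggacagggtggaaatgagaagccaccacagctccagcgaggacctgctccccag

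Between 18609222 and 24753258 reads were counted per mouse. Values are given as CPM, the counts per 1000000 reads after scaling between libraries with TMM factors. Of 14410 genes that passed the filter on low counts, 0% were called between genotypes at an adjusted p under 0.05 (edgeR's quasi-likelihood test, Benjamini-Hochberg), and 1.05% had an unadjusted p under 0.05. The CPM of the groups did not overlap in 0.139% of the genes. A pair of libraries stood apart, both Pax7Cre: on the first principal component (33.0% of the variance) mouse 2 lay at 43.9 and mouse 4 at -27.5, with the other 8 mice between -8.97 and 16.9. Regenerating muscle was seen in the samples of both genotypes: *Myh3*, the embryonic myosin heavy chain of new fibers, stood at 1119 ± 267 CPM in Pax7Cre and 1140 ± 129 CPM in miR-501ΔMP mice (mean ± SD, n = 5), beside fiber genes such as *Ckm* and *Acta1*. The libraries hold mRNA and do not measure miR-501 itself. *Clcn5*, its host gene, stood at 62.1 ± 8.59 CPM in Pax7Cre and 64.9 ± 1.55 CPM in miR-501ΔMP mice, a log2 fold change of 0.06 with a standard error of 0.0911.

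No fusion gene differed between the genotypes beyond the spread between mice. Of the 6 with reads, 0 were called by edgeR at an adjusted p under 0.05, where 0% of all genes were, and 0 had an unadjusted p under 0.05, where 0.382% of all genes were higher and 0.666% lower at that level. DESeq2's Wald test also called 0 of the 6. The groups overlapped for all 6, and for each gene the values of all 5 miR-501ΔMP mice lay inside the Pax7Cre range. The 6 log2 fold changes lay between -0.08 and 0.05, with the median of all genes tested at -0.0042. In bulk tissue, fewer cells of a type and less RNA per cell cannot be told apart. The plot of CPM by mouse shows all values.

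**Figure D1:**
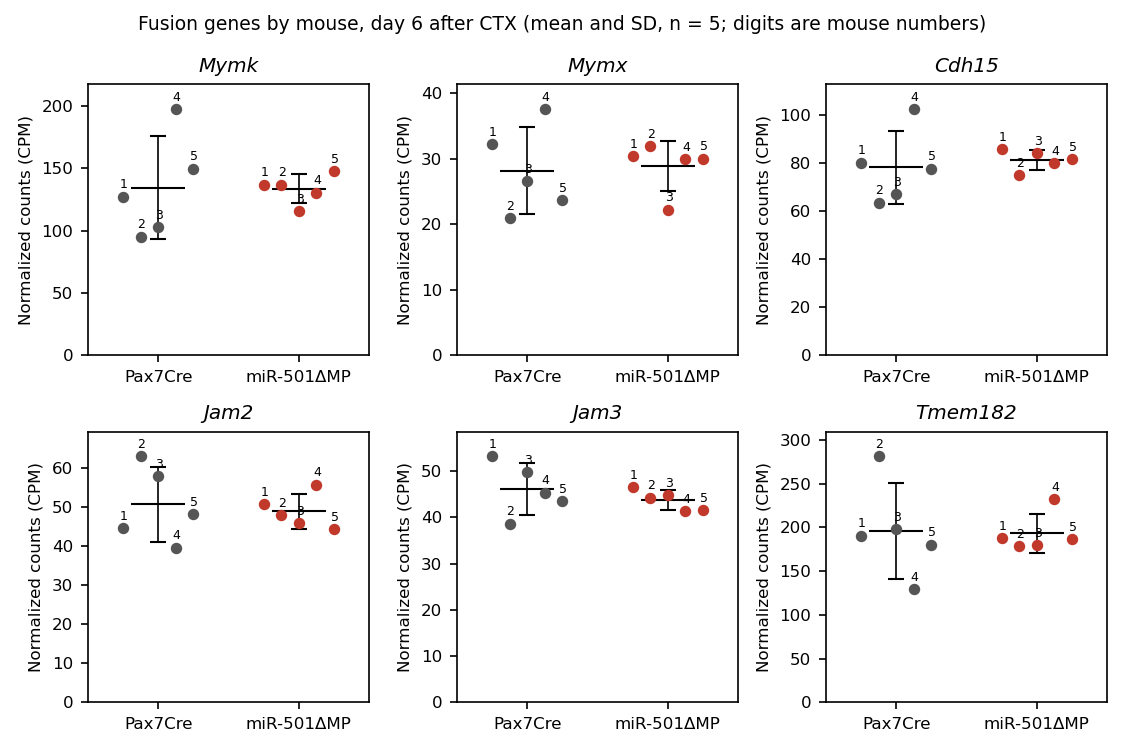
CPM (counts per 1000000 reads after TMM scaling) of the 6 detected fusion genes in each mouse, with Pax7Cre in grey and miR-501ΔMP in red; horizontal lines are means and error bars are SD (n = 5). For each gene the red points lie within the range of the grey points, and Pax7Cre mice 2 and 4 take opposite ends of the CPM range for all but *Jam3*.

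*Mymk* (ENSMUSG00000009214, GRCm38 chr2:27061636-27072179, minus strand), which both fusing cells need, stood at 127, 95.2, 103, 198 and 150 CPM in Pax7Cre mice 1 to 5. In miR-501ΔMP mice 1 to 5 it stood at 137, 137, 116, 131 and 148 CPM. The Pax7Cre mice held both the highest and the lowest value, and the miR-501ΔMP mice lay between them. The means were 134.6 ± 41.3 CPM in Pax7Cre and 133.7 ± 11.8 CPM in miR-501ΔMP mice (SD, n = 5), a log2 fold change of -0.01 with a standard error of 0.170. The 95% interval ran from 0.770-fold to 1.28-fold, so a change of the mean beyond these limits lies outside what the fit allows, whereas smaller ones were not detectable with these mice (exact permutation p = 0.984, two-sided). Each value rests on 1805 to 4929 reads.

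*Mymx* (ENSMUSG00000079471, chr17:45600971-45602102, minus strand), the small partner protein that acts after adhesion, was at lower counts of 396 to 937 reads per mouse. Its CPM was 32.2, 20.9, 26.6, 37.6 and 23.7 in Pax7Cre mice 1 to 5 and 30.4, 31.9, 22.2, 29.9 and 30.0 in miR-501ΔMP mice 1 to 5. The groups overlapped, with Pax7Cre mice 2 and 4 again at the ends and miR-501ΔMP mouse 3 below the other mice of its genotype. The means of 28.2 ± 6.71 and 28.9 ± 3.80 CPM gave a log2 fold change of 0.03 with a standard error of 0.151 and a 95% interval from 0.815-fold to 1.28-fold (exact permutation p = 0.841).

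Because the 2 fusogens act together, their ratio was also compared within each mouse, which does not depend on the scaling between libraries. Per length of annotated exon (1511 bases for *Mymk* and 1027 for *Mymx*), the *Mymx* to *Mymk* ratio was 0.372, 0.323, 0.381, 0.280 and 0.233 in Pax7Cre mice and 0.326, 0.342, 0.282, 0.337 and 0.298 in miR-501ΔMP mice. The transcripts thus kept a ratio of 0.318 ± 0.0626 and 0.317 ± 0.0260 (SD, n = 5). The difference was 0.02 on the log2 scale (exact two-sided permutation p = 0.913), where the smallest p for 5 mice against 5 is 0.00794.

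*Cdh15* (ENSMUSG00000031962, chr8:122847966-122867397, plus strand), the cadherin of satellite cells and myoblasts, stood at 80.2, 63.6, 67.3, 102.6 and 77.7 CPM in Pax7Cre mice. It stood at 85.9, 74.9, 84.1, 80.0 and 81.6 CPM in miR-501ΔMP mice. The latter 5 lay close together, and Pax7Cre mice 2 and 4 again marked the lowest and highest values. With means of 78.3 ± 15.3 and 81.3 ± 4.20 CPM, the log2 fold change was 0.05 with a standard error of 0.114 and a 95% interval from 0.875-fold to 1.23-fold (exact permutation p = 0.738). Without Pax7Cre mouse 4, it was 0.17 (edgeR unadjusted p = 0.0638), the lowest p of any fusion gene when single mice were left out. *Cdh15* overlaps the gene model Gm20388 on the same strand, but no exons are shared. Its relative *Cdh2*, N-cadherin, stood at 24.5 ± 8.32 and 26.1 ± 2.83 CPM, a log2 fold change of 0.09 with a standard error of 0.196.

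The junctional adhesion molecules had their extremes in different mice in CPM. *Jam2* (ENSMUSG00000053062, chr16:84774123-84825928, plus strand) had 44.7, 63.0, 57.9, 39.6 and 48.2 CPM in Pax7Cre mice and 50.8, 48.0, 45.9, 55.7 and 44.3 CPM in miR-501ΔMP mice. Here Pax7Cre mouse 2 was the highest and mouse 4 the lowest of all 10 in CPM, the reverse of *Mymk*, *Mymx* and *Cdh15*. In TPM (reads per length, explained further on) its highest was Pax7Cre mouse 3 and its lowest mouse 1, so the order of the mice for *Jam2* depended on the scaling. The means were 50.7 ± 9.60 and 48.9 ± 4.51 CPM, with a log2 fold change of -0.05, a standard error of 0.120 and a 95% interval from 0.807-fold to 1.16-fold (exact permutation p = 0.714).

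*Jam3* (ENSMUSG00000031990, chr9:27097384-27155421, minus strand) varied least of the 6 in CPM. In TPM it ranged from 25.7 to 46.9, whereas *Jam2* varied less, from 19.0 to 25.4. *Jam3* had 53.2, 38.7, 49.8, 45.3 and 43.6 CPM in Pax7Cre mice and 46.5, 44.3, 44.8, 41.4 and 41.5 CPM in miR-501ΔMP mice. Mice 1 and 2 of Pax7Cre held its extremes in CPM, and mice 4 and 2 in TPM. Its log2 fold change of -0.08 (standard error 0.0862) was the farthest from 0 of the 6, with means of 46.1 ± 5.62 and 43.7 ± 2.20 CPM and a 95% interval from 0.833-fold to 1.08-fold (exact permutation p = 0.405). The antisense gene model Gm48796 overlaps exons of *Jam3* and is not listed in the counts. How the counting used strand is not given in the sources used here, so their reads cannot be told apart.

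*Nphs1* (ENSMUSG00000006649, chr7:30458315-30487223, plus strand) had 0 reads in all 10 mice. At these depths, 3 counts, the limit that a count of 0 allows, correspond to between 0.121 and 0.161 CPM per mouse, so reads assigned to *Nphs1* were not detectable above that level in either genotype. Exons of *Nphs1* are overlapped on the opposite strand by the gene models Nphs1os and Rps12-ps4, which are not listed in the counts, and how reads in the overlap were counted is not given in the sources used here. It did not pass the filter and has no fold change. This limit covers counting error only.

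*Tmem182* (ENSMUSG00000079588, chr1:40805601-40856887, plus strand), the inhibitory member, had the highest mean CPM of the group, from 3225 to 5326 reads per mouse. Its CPM was 190.6, 281, 198, 129 and 180.0 in Pax7Cre mice and 187.8, 178, 179.8, 232 and 186.8 in miR-501ΔMP mice. Pax7Cre mouse 2 was the highest and mouse 4 the lowest, and miR-501ΔMP mouse 4 stood above the other 4 of its genotype. The means of 195.8 ± 54.7 and 193.1 ± 22.4 CPM differed by a log2 fold change of -0.02 with a standard error of 0.165 and a 95% interval from 0.770-fold to 1.26-fold (exact permutation p = 0.857). *Itgb1*, its integrin partner, stood at 689 ± 52.6 and 706 ± 29.6 CPM, a log2 fold change of 0.03 with a standard error of 0.0896.

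**Figure D2:**
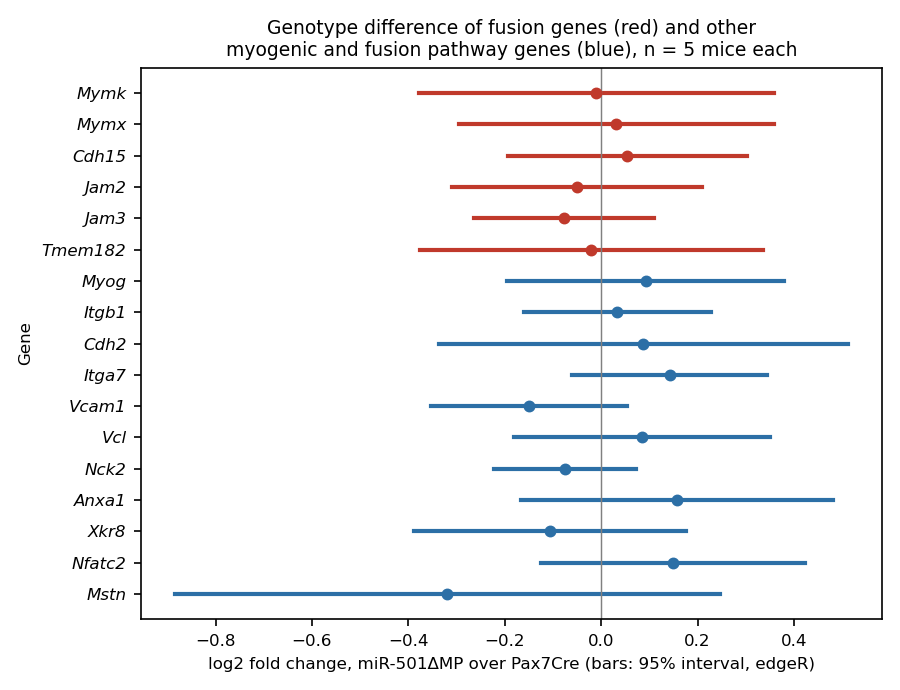
Log2 fold change of miR-501ΔMP over Pax7Cre (x axis) for the 6 detected fusion genes in red and for other genes of the fusion and myogenic lists in blue; points are edgeR estimates and bars their 95% intervals (5 mice per genotype). Every bar crosses 0, and the bars of *Mymk* and *Mymx* end at 0.36 on the upper side.

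Compared per length of exon, as TPM (reads per length, scaled to the same total in each mouse), the fusogen *Mymk* and the inhibitor *Tmem182* headed the group. *Mymk* stood at 237.6 ± 79.4 TPM and *Tmem182* at 184.5 ± 17.5 TPM (SD, 10 mice). *Mymx* followed at 73.9 ± 20.4 TPM and *Cdh15* at 65.2 ± 16.1 TPM, then *Jam3* at 37.0 ± 5.99 TPM and *Jam2* at 21.4 ± 1.77 TPM, and *Nphs1* was at 0. Among the genes tested, these mean levels ranked between the 66.6th percentile for *Jam2* and the 96.9th for *Mymk*.

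Neighbours in this order were compared within mice by an exact two-sided sign-flip permutation test of the log2 TPM ratio, whose smallest p is 0.00195. *Mymk* was above *Tmem182* in 8 of 10 mice, by 1.24-fold on average, which did not exceed the spread (exact p = 0.107), except without Pax7Cre mouse 2 (exact p = 0.0117). *Tmem182* was above *Mymx* in 10 of 10 mice, by 2.57-fold (exact p = 0.00195). *Mymx* was above *Cdh15* in 8 of 10 mice, by 1.12-fold (exact p = 0.0371), but this step passed 0.05 in only 3 of the 10 analyses that left out a mouse (highest exact p = 0.0742). Below them, the steps were 1.74-fold from *Cdh15* to *Jam3* and 1.71-fold from *Jam3* to *Jam2*, each in 10 of 10 mice (exact p = 0.00195 for both). With the longest transcript in place of all exons as the length, *Mymk* exceeded *Tmem182* (log2 ratio 0.44, exact p = 0.0293), whereas *Cdh15* and *Jam3* no longer differed beyond the spread (log2 ratio 0.08, exact p = 0.264). By that length *Mymx* exceeded *Cdh15* by a log2 ratio of 0.52 (exact p = 0.00195), against 0.17 by all exons.

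**Figure D3:**
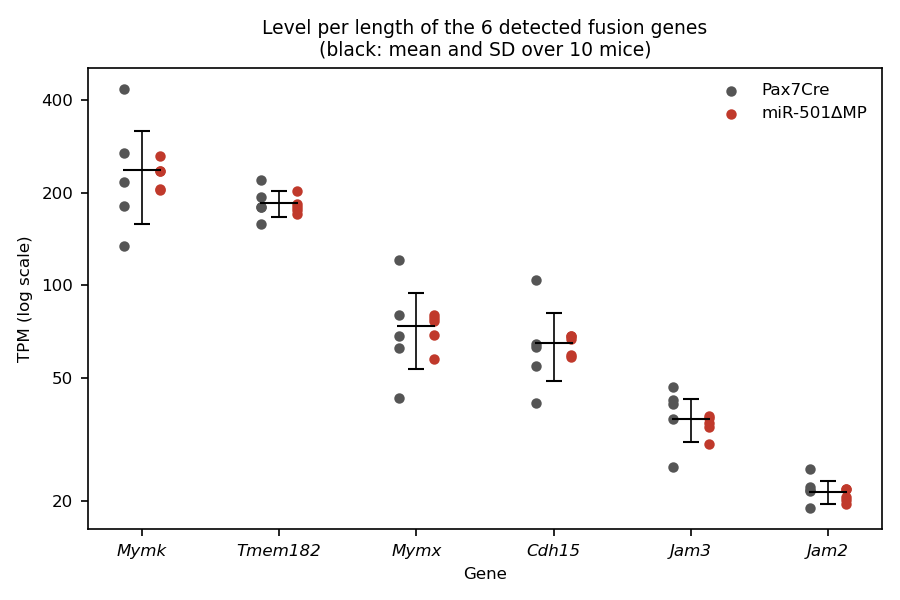
Level of the 6 detected fusion genes in TPM (reads per length, log axis) in each Pax7Cre (grey) and miR-501ΔMP (red) mouse; black lines are the mean and SD over 10 mice. *Mymk* and *Tmem182* lie highest and *Jam2* lowest, and the points of *Mymk* spread from 134 to 434 TPM.

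The SD in CPM was larger in Pax7Cre than in miR-501ΔMP mice for 6 of 6 fusion genes, by 3.5 times for *Mymk*, 1.76 for *Mymx*, 3.63 for *Cdh15*, 2.13 for *Jam2*, 2.56 for *Jam3* and 2.44 for *Tmem182*. The same was true of 79.5% of all genes tested, so most of the transcriptome had this direction. Without Pax7Cre mice 2 and 4 it held for 5 of 6 fusion genes, with *Tmem182* at 0.404 times, and for 61.8% of all genes. No test of the spread was run.

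From mouse to mouse, 5 of the 6 fusion genes had their extremes in Pax7Cre mice 2 and 4 in CPM, in opposite orders. In CPM, Pax7Cre mouse 4 exceeded mouse 2 by 2.08-fold for *Mymk*, 1.80-fold for *Mymx* and 1.61-fold for *Cdh15*. Myogenin (*Myog*), the transcription factor of terminal differentiation, did the same, at 279 against 153 CPM, a 1.82-fold difference. The summed list of differentiating myoblast markers, which includes *Myog*, did not have mouse 4 at its top. It stood at 8248 CPM in Pax7Cre mouse 4 and 7275 CPM in mouse 2. Pax7Cre mice 1, 3 and 5 had 8345, 8908 and 9817 CPM. In contrast, mouse 2 exceeded mouse 4 by 1.59-fold for *Jam2* and by 2.17-fold for *Tmem182*. In TPM, mouse 4 exceeded mouse 2 by 3.23-fold for *Mymk*, 2.80-fold for *Mymx*, 2.51-fold for *Cdh15* and 1.82-fold for *Jam3*, and mouse 2 exceeded mouse 4 by 1.40-fold for *Tmem182* but by only 1.02-fold for *Jam2*. In CPM, mouse 4 exceeded mouse 2 by 1.17-fold for *Jam3*. The direction thus held on both scales for *Mymk*, *Mymx*, *Cdh15*, *Jam3* and *Tmem182*, and the contrast of *Jam2* was seen in CPM. *Myog* was not called between genotypes, at 222 ± 46.8 CPM in Pax7Cre and 237 ± 13.7 CPM in miR-501ΔMP mice (exact permutation p = 0.563).

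Over all 10 mice, 57 relations on the log2 CPM scale were tested by permutation (100000 resamples) with Benjamini-Hochberg adjustment: 15 between fusion genes and 42 between a fusion gene and the summed level of a cell type marker list. Of the 15 pairs, 7 passed 0.05 by Pearson's r, 6 after genotype means were subtracted, and 0 by Spearman's rho. *Mymk* rose with *Cdh15* (r = 0.86, adjusted p = 0.0135; rho = 0.59) and with *Mymx* (r = 0.72, adjusted p = 0.0493; rho = 0.55). *Jam2* rose with *Tmem182* (r = 0.88, adjusted p = 0.00798; rho = 0.75).

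Between these groups, 4 pairs had negative relations that passed. *Mymk* and *Tmem182* had r = -0.82 (adjusted p = 0.0279), *Cdh15* and *Tmem182* r = -0.81 (adjusted p = 0.0326), *Mymk* and *Jam2* r = -0.81 (adjusted p = 0.0159), and *Cdh15* and *Jam2* r = -0.84 (adjusted p = 0.0127). *Mymx* did not pass against *Jam2* (r = -0.59, adjusted p = 0.124) or *Tmem182* (r = -0.62, adjusted p = 0.100). *Jam3* passed with no other fusion gene on this scale, with r between -0.42 for *Tmem182* and 0.40 for *Mymx*. The calls rested on few mice. Leaving out Pax7Cre mouse 2 left 0 of the 15 pairs past 0.05, and leaving out mice 2 and 4 also left 0. Without mouse 2 alone, however, r was 0.59 for *Mymk* and *Mymx* and 0.80 for both *Mymk* and *Cdh15* and *Jam2* and *Tmem182*. For the 4 negative pairs it then lay between -0.75 (*Cdh15* and *Jam2*) and -0.69 (*Cdh15* and *Tmem182*). Without the 2 mice farthest from the median of the first gene, r was 0.50 for *Mymk* and *Cdh15*, 0.26 for *Mymk* and *Mymx*, 0.66 for *Jam2* and *Tmem182*, -0.50 for *Mymk* and *Jam2*, -0.55 for *Cdh15* and *Jam2*, -0.22 for *Mymk* and *Tmem182*, and -0.099 for *Cdh15* and *Tmem182*.

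Relations of *Jam2*, *Jam3* and *Mymx* also depended on how libraries were scaled. In TPM, r of *Jam2* was -0.23 with *Mymk*, -0.24 with *Cdh15* and 0.33 with *Tmem182*. For *Jam3*, r in TPM was 0.70 with *Mymk*, 0.78 with *Mymx*, 0.77 with *Cdh15* and -0.82 with *Tmem182*. For *Mymx*, it was 0.85 with *Cdh15* and -0.79 with *Tmem182*, against 0.65 and -0.62 in CPM. Those of *Mymk* with *Cdh15* and *Tmem182* were 0.94 and -0.86 in TPM, and that of *Cdh15* with *Tmem182* was -0.88. The use of TPM here, like the leaving out of both mice, was chosen after seeing the data.

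**Figure D4:**
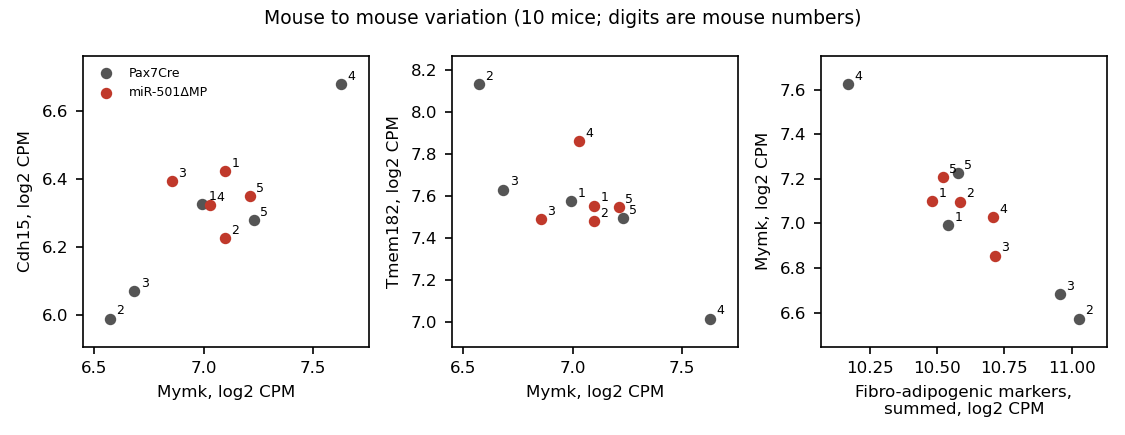
Each point is a mouse (digits are mouse numbers; Pax7Cre grey, miR-501ΔMP red) on log2 CPM axes: *Cdh15* against *Mymk*, *Tmem182* against *Mymk*, and *Mymk* against the summed fibro-adipogenic markers. Pax7Cre mice 2 and 4 sit at opposite corners of all 3 panels, where r is 0.86, -0.82 and -0.96.

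Some marker lists of cells in the muscle moved with these values, and the plot of deviations by mouse gives them side by side. Of the 42 relations with a list, 14 passed 0.05 by Pearson's r and 5 by Spearman's rho. All 10 genes of the mature fiber list passed the filter. Their summed level ranged from 18654 to 49370 CPM in Pax7Cre and from 27282 to 36850 CPM in miR-501ΔMP mice. Pax7Cre mouse 2 was the highest and Pax7Cre mouse 4 the lowest of all 10 mice. *Tmem182* rose with this list (r = 0.89, adjusted p = 0.0141), but rho was 0.49, and r fell to 0.43 without the 2 farthest mice. *Jam3* ran opposite to it by rank (rho = -0.87, adjusted p = 0.0384), whereas r was -0.71 (adjusted p = 0.0610), -0.67 without the 2 farthest mice and -0.94 in TPM. All 5 fibro-adipogenic markers were detected, at 1152 to 2089 CPM in sum in Pax7Cre and 1430 to 1680 CPM in miR-501ΔMP mice, and *Mymk* ran opposite to them (r = -0.96, adjusted p = 0.00513; rho = -0.85, adjusted p = 0.0384). *Cdh15* (r = -0.92, adjusted p = 0.00798) and *Mymx* (r = -0.77, adjusted p = 0.0279) also ran opposite to this list, whereas *Jam2* (r = 0.88, adjusted p = 0.00798) and *Tmem182* (r = 0.84, adjusted p = 0.0194) rose with it, and in TPM these were -0.51, -0.54, 0.64 and 0.44. Without the 2 farthest mice they were -0.73, -0.67, 0.69 and 0.35, and none of the 4 passed by rho.

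That relation of *Mymk* held without the 2 farthest mice (r = -0.85) and without Pax7Cre mouse 2 (r = -0.94), and was weaker in TPM (r = -0.58). *Cdh15* and *Mymk* rose with the satellite cell list, of which 6 of 7 genes passed the filter and *Calcr* did not (191 to 254 CPM in Pax7Cre, 211 to 240 CPM in miR-501ΔMP mice). For *Cdh15*, r was 0.90 (adjusted p = 0.00798; rho = 0.84, adjusted p = 0.0384; 0.68 without the 2 farthest mice; 0.97 in TPM), and for *Mymk* it was 0.88 (adjusted p = 0.0103; 0.64 without them). *Mymx* also rose with it (r = 0.72, adjusted p = 0.0476), and *Jam2* (r = -0.86, adjusted p = 0.0109) and *Tmem182* (r = -0.86, adjusted p = 0.0135) ran opposite to it, with r in TPM of 0.89, -0.19 and -0.92 in this order. Without the 2 farthest mice these were 0.65, -0.61 and -0.48, and none of the 3 passed by rho.

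*Jam2* and *Tmem182* rose with the 5 Schwann cell markers, glia of the muscle nerves, whose sum was only 36.9 to 58.6 CPM in Pax7Cre and 38.9 to 56.2 CPM in miR-501ΔMP mice. The r was 0.91 for *Jam2* (adjusted p = 0.00551; 0.84 without the 2 farthest mice; 0.70 in TPM) and 0.86 for *Tmem182* (adjusted p = 0.00513; rho = 0.87, adjusted p = 0.0384; 0.89 without the 2 farthest mice; 0.79 in TPM). *Mymx* ran opposite to the 10 endothelial markers (795 to 1043 CPM in Pax7Cre, 807 to 1003 CPM in miR-501ΔMP mice; r = -0.88, adjusted p = 0.00798; rho = -0.85, adjusted p = 0.0384), but in TPM the sign turned (r = 0.22). *Mymk* had r = 0.22 with the 11 differentiating myoblast markers and 0.30 with the 9 macrophage markers, neither past the threshold, but in TPM these were 0.68 and 0.79. The part of these cell types in the mouse to mouse differences was not tested.

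**Figure D5:**
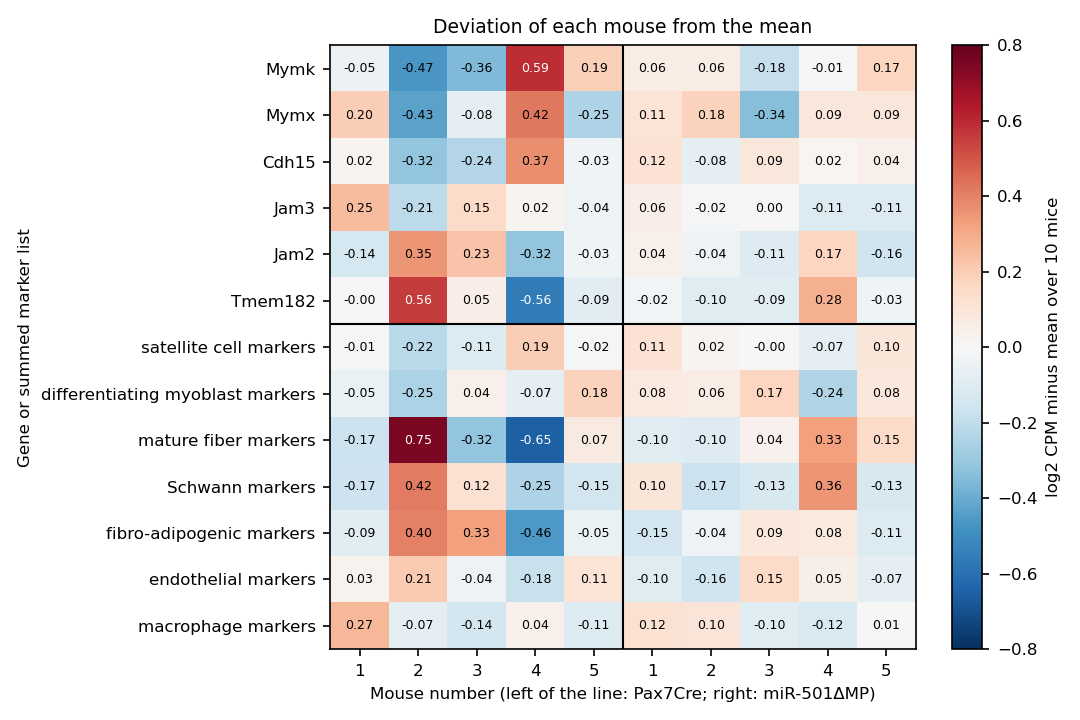
Log2 CPM of each fusion gene (upper rows) and of each summed marker list (lower rows) in each mouse, minus the mean over 10 mice; red is above and blue below the mean, and the vertical line separates Pax7Cre from miR-501ΔMP. *Mymk* is at -0.47 in Pax7Cre mouse 2 and 0.59 in mouse 4, whereas *Tmem182* is at 0.56 and -0.56 and the mature fiber markers at 0.75 and -0.65.

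For each fusion gene the pair of other genes with the most similar profile over the 10 mice was found from Pearson's r of log2 CPM after subtracting genotype means, as a description with no test. For *Mymk* these were *Scrib*, a cell polarity scaffold (r = 0.993), and *Snai1*, a zinc finger repressor (r = 0.982). For *Mymx* they were *R3hdml* (r = 0.981) and *Dhrs9* (r = 0.961), and for *Cdh15* they were *Prss46* (r = 0.982) and the septin gene *Sept9* (r = 0.971). *Dhrs9* and *Prss46* were low, at no more than 3.57 and 1.56 CPM.

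For *Jam2*, *Samd12* was among them (r = 0.967), and it was also low, at no more than 2.48 CPM. *Jam3* was most like *Ostc*, of the oligosaccharyltransferase complex (r = 0.972), and the tetraspanin gene *Cd63* (r = 0.967). *Tmem182* was most like the mitochondrial gene *mt-Cytb* (r = 0.995) and *Pkia*, an inhibitor of protein kinase A (r = 0.995). For *Tmem182*, 549 genes reached r of at least 0.9, against 166 for *Mymk*, 97 for *Jam2*, 78 for *Jam3*, 59 for *Cdh15* and 37 for *Mymx*. The share of reads on mitochondrial genes, from 6.59% in Pax7Cre mouse 4 to 14.0% in Pax7Cre mouse 2, was lowest and highest in the same mice.

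No gene of the wider fusion machinery was called between genotypes by edgeR. In the adhesion list (other cadherins, integrins and immunoglobulin family receptors), 22 of 24 genes were tested, 0 were called in either direction and 15 lay above 0, with a median log2 fold change of 0.02. Its ends were the integrin α7 gene *Itga7* (0.14, standard error 0.0934) and *Vcam1*, a ligand of integrin α4 (-0.15, standard error 0.0939). In the list of actin regulators at the fusion site, all 32 genes were tested, 0 were called and 16 lay above 0 (median 0.00099), from the adaptor *Nck2* at -0.07 to *Vcl*, vinculin, at 0.08.

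In the list of membrane repair and lipid exposure genes, 14 of 15 were tested, 0 were called and 8 lay above 0 (median 0.04), from *Xkr8*, a phospholipid scramblase, at -0.11 to *Anxa1*, annexin A1, at 0.16. In the list of signals that promote or restrain fusion, 18 of 19 were tested, 0 were called and 4 lay above 0 (median -0.04). *Nfatc2*, a transcription factor of myotube growth, was its highest at 0.15, and *Mstn*, myostatin, its lowest at -0.32 with a standard error of 0.261. *Mstn* stood at 8.46 ± 3.71 CPM in Pax7Cre and 6.76 ± 1.67 CPM in miR-501ΔMP mice. Over all 14410 genes, 6906 lay above 0. *Adgrb1*, *Adgrb3*, *Fer1l5* and *Il4* were too low to be tested.

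The myogenic and other cell type lists had 0 calls each as well, and 0 genes in any list had an unadjusted p under 0.05. Of the differentiating myoblast markers 7 of 11 lay above 0 (median 0.03), from the cell cycle inhibitor *Cdkn1c* at -0.08 to cardiac actin, *Actc1*, at 0.18. Of the satellite cell markers 5 of 6 did (median 0.04; *Chodl* at -0.13, *Heyl* at 0.11), and of the mature fiber markers 9 of 10 (median 0.06; *Myh4* at -0.04, *Actn3* at 0.13). The remaining lists had 1 of 10 endothelial (median -0.06; *Flt1* at -0.13, *Tie1* at 0.01), 6 of 9 macrophage (median 0.02; *Mrc1* at -0.22, *Cd74* at 0.09), 0 of 5 fibro-adipogenic (median -0.08; *Dpt* at -0.12, *Pdgfra* at -0.04) and 4 of 5 Schwann cell genes (median 0.03; *Sox10* highest at 0.12) above 0.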

How the data were processed

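Raw read counts per Ensembl gene, without normalization, were deposited by the authors for each of 10 mice, from stranded mRNA libraries read as 100-base single ends. They aligned with STAR; the submitters' processing notes also name featureCounts, R 3.5.1 and GRCm38.p5. Strand and multi-mapping settings are not given in the sources used here. Identifiers were matched to GENCODE M21 (25664 of 25700), whose exon lengths gave TPM. Genotypes were compared with the quasi-likelihood test of edgeR 4.0.16 (R 4.3.3) after TMM scaling, on the 14410 genes left by filterByExpr (minimum count 10, minimum total 15), with p-values adjusted over all of them by the Benjamini-Hochberg method. The steps were tested on simulated data. DESeq2 1.42.0 served as an alternative. The members and lists were chosen with earlier results of these data known. Other genes named are the highest and lowest of each list by log2 fold change, the 2 most similar in profile to each member, and *Ckm*, *Acta1*, *Myh3*, *Myog*, *Itgb1*, *Cdh2* and *Clcn5*. Of these, 2 are not reported here. Nothing states which mice share a litter or batch, so p-values measure the spread between these mice.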

Additional observations from a re-analysis of the deposited data

Results flagged for a closer look

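Within each genotype, the highest and lowest mouse were compared with the others by Dixon's ratio of the gap to the range. In 28 groups searched, 2 passed the 95% critical value of 0.710 for 5 mice, where chance alone gives about 1 in 20, or 1.4. *Mymx* stood at 22.2 CPM in miR-501ΔMP mouse 3, below the other 4 mice of that genotype at 29.9 to 31.9 CPM. *Tmem182* stood at 232 CPM in miR-501ΔMP mouse 4, above the other 4 at 178 to 187.8 CPM, and the same mouse had the highest mature fiber markers of its genotype.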

How the results depend on the processing

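The 6 fusion genes were uncalled in the main analysis and under all 19 alternatives, and none reached an unadjusted p of 0.05. The number of genes called was 0 except for 19 with edgeR's likelihood ratio test and trended dispersion. Genes at an unadjusted p under 0.05 numbered 55 higher and 96 lower. The higher numbered 36 with library size only, 153 with no filter, 36 with at least 10 counts in every mouse, 87 with the replicate block and 123 with the likelihood ratio test, and the lower 159 with no filter. Leaving out single mice gave 39 to 267 higher (267 without Pax7Cre mouse 2 and 228 without mouse 4) and 59 to 242 lower (186 and 242 without these mice, 59 without miR-501ΔMP mouse 1). Fold changes near 0 changed sign: *Mymk* to 0.038 and *Tmem182* to 0.014 with the replicate block, and *Mymx* to -0.012 with library size only. Leaving out single mice gave log2 fold changes of -0.11 to 0.17 for *Mymk*, -0.061 to 0.16 for *Mymx*, -0.014 to 0.17 for *Cdh15*, -0.13 to 0.038 for *Jam2*, -0.14 to -0.021 for *Jam3* and -0.14 to 0.14 for *Tmem182*, and -0.088 to 0.090 for the log2 *Mymx* to *Mymk* ratio. The cause was not tested.

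Of the 5 neighbouring pairs in TPM, 4 differed, and 3 to 5 did when single mice were left out. The count of 7 correlated pairs became 0 without Pax7Cre mouse 2, where their r was still 0.59 to 0.80 in size. In settings chosen after seeing the data, the count was 0 without mice 2 and 4, 5 with library size only and 9 in TPM. Whether equal mouse numbers mark pairs is not stated, and not every same-number correlation was above 0.1: they were 0.34, -0.15, 0.16, -0.30 and 0.20 for numbers 1 to 5, and 5 of 10 mice correlated best with their own number. The replicate block changed no call of a fusion gene. With 396 or more reads per mouse on each of the 6 genes and 5 mice per genotype, the 95% intervals ended between 0.770-fold and 0.875-fold on the lower side and between 1.08-fold and 1.28-fold on the upper side, and differences inside them could not be told from none.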
